A study of Homo sapiens with 12 samples.

Results

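The genes described here are the receptors, adaptors and binding proteins of the insulin-like growth factor (IGF) system that the tables of 2 melanoma cell lines list by symbol. They are 10 of 23273 genes, namely the receptors IGF1R, INSR and IGF2R, the adaptors IRS1 and IRS2, and the binding proteins IGFBP2, IGFBP3, IGFBP4, IGFBP5 and IGFBP7. They were chosen by name and not by their values. RNA was sequenced from COLO858 and MMACSF, established melanoma lines that carry mutant BRAF, grown on plates and exposed to DMSO (the vehicle) or to 0.2 μM vemurafenib, a RAF kinase inhibitor, for 24 or 48 h. Each of the 6 groups had 2 libraries from replicate plates, so the spread and every p-value describe replicate plates of a single line. The DMSO labels carry no time, and both drug times of a line were compared with the same 2 DMSO libraries.

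IGF1R and INSR are receptor tyrosine kinases that bind IGFs and insulin and phosphorylate the adaptors IRS1 and IRS2, which recruit PI3-kinase and so activate AKT. IGF2R, the cation-independent mannose 6-phosphate receptor, carries lysosomal enzymes and takes up IGF2 without kinase signaling. The IGFBPs are secreted proteins that bind IGFs outside the cell and can hold them away from the receptors or keep them in store, and IGFBP7 binds IGFs only weakly. Active AKT keeps FOXO transcription factors out of the nucleus, and IRS2 and INSR are among the genes that FOXO factors are known to activate.

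Levels are in FPKM (sequenced fragments scaled to transcript length and to the mapped fragments of the library). Changes are differences of log2(FPKM + 1), tested with limma, with p-values adjusted over all genes tested in the comparison. A gene was tested in a line if its mean reached 1 FPKM in at least 1 group, and a change is called past the threshold at an adjusted p under 0.01. Unless stated, calls and misses below are those of the main fit, which has no term for the replicate number. With that number as a block, 27 of the 69 values fitted for the 10 genes passed, in place of 9. Of the 10 genes, 8 were tested in COLO858, 9 in MMACSF and 9 in the comparison of the lines. The sum of FPKM per library was 670310 to 1013040, and 11679 to 11972 genes reached 1 FPKM. Of the sum, the small RNA gene MIR4461 made up 14.1% to 19.0% in the libraries numbered replicate 1. In those numbered replicate 2 it made up 25.8% to 43.4%. Of 7 melanocyte lineage markers, 5 to 6 reached 1 FPKM in the groups of COLO858 and 7 in those of MMACSF. No marker of keratinocytes, leukocytes or endothelium (3 each) reached 1 FPKM in any library, and the highest single value was 0.448 FPKM. The summed melanocyte markers were 699 to 715 FPKM under DMSO and 3910 to 4142 FPKM in drug in COLO858, and 11158 to 11371 FPKM and 15584 to 17549 FPKM in MMACSF. Summed MKI67, TOP2A and CCNB1, which mark dividing cells, went from 152 to 207 FPKM under DMSO to 23.3 to 30.1 FPKM at 24 h and 91.4 to 120 FPKM at 48 h in COLO858. The same sum in MMACSF was 113 to 138 FPKM, 18.1 to 23.5 FPKM and 5.04 to 7.24 FPKM. These sums moved with the drug beside every result below, and their part in those results was not tested. In these bulk samples, fewer cells of a kind and less RNA per cell cannot be told apart.

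**Figure D1:**
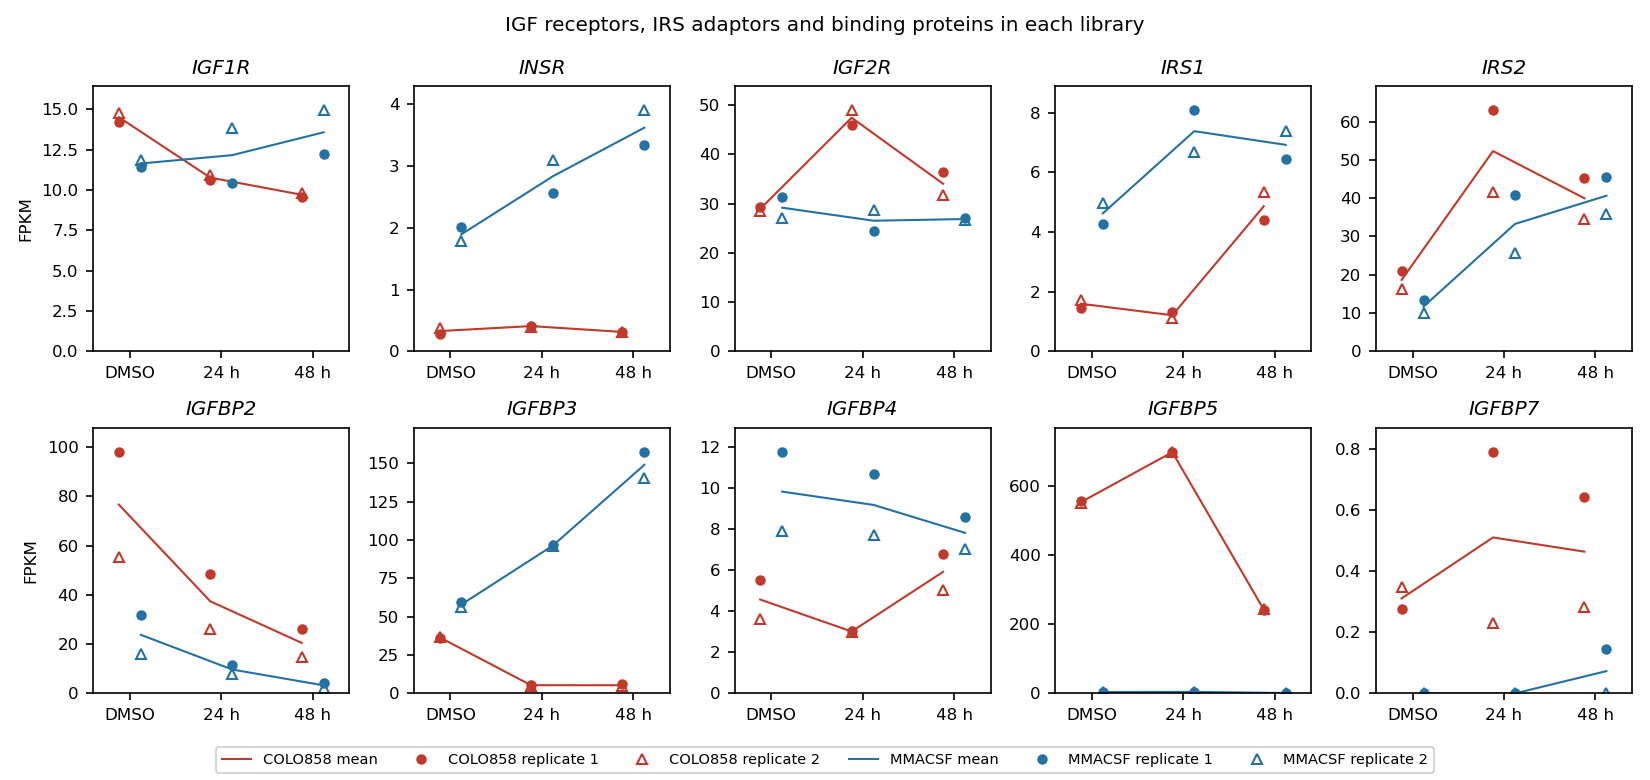
FPKM (vertical axes, each panel from 0 on its own scale) of the 10 genes under DMSO and after 24 and 48 h of vemurafenib in COLO858 (red) and MMACSF (blue). Filled circles are replicate 1, open triangles replicate 2, and lines join the means; IGFBP3 went down in COLO858 and up in MMACSF, and IGFBP5 was lowest at 48 h in both lines.

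IGFBP3, the main carrier of IGFs in blood, changed in opposite directions in the 2 lines. In COLO858 it measured 36.2 and 37.0 FPKM under DMSO, 5.69 and 5.02 FPKM at 24 h, and 5.95 and 4.72 FPKM at 48 h. All 4 vemurafenib-treated libraries lay far below both DMSO libraries, and those of 24 and 48 h overlapped. IGFBP3 fell by 2.57 ± 0.16 (SE, n = 2 per group) on the log2 scale at 24 h (limma adjusted p = 0.00102) and by 2.58 ± 0.16 at 48 h (limma adjusted p = 0.00110), and the means in FPKM were 6.84-fold and 6.86-fold lower. From 24 to 48 h the difference was -0.01 with a 95% interval of -0.41 to 0.40, and its sign turned when the libraries were rescaled by median ratios (0.05).

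In MMACSF, IGFBP3 measured 59.5 and 56.5 FPKM under DMSO, 96.9 and 95.9 FPKM at 24 h, and 157 and 141 FPKM at 48 h. The 3 conditions did not overlap, and each drug time lay above the one before. IGFBP3 rose by 1.34 ± 0.11 on the log2 scale at 48 h (limma adjusted p = 0.00190), or 2.57-fold in mean FPKM. At 24 h the difference was 0.72 ± 0.11, which missed the threshold (limma adjusted p = 0.0121).

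The change of IGFBP3 in COLO858 minus that in MMACSF was -3.29 ± 0.17 at 24 h (limma interaction, adjusted p = 5.82e-05) and -3.92 ± 0.17 at 48 h (adjusted p = 6.82e-06). It ranked 9 of the 263 genes whose change was lower in COLO858 at 24 h, and 11 of 448 at 48 h. The difference between the lines stayed past the threshold in 8 of 8 fits at each time that left out 1 of the libraries compared, with values of -3.37 to -3.21 at 24 h and -4.06 to -3.78 at 48 h. The fall within COLO858 at 24 h was -2.64 to -2.49 when any of its 4 libraries was left out, but its limma adjusted p was then 0.0111 to 0.0133. Calls over all genes in that comparison went from 1247 to between 114 and 154 in these smaller fits.

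Of the 9 genes tested in both lines together, IGFBP3 was the 1 past the threshold for lower change in COLO858 in the fit without a replicate block. This held at 24 h as at 48 h, against 1.93% and 3.30% of all genes. Members past the threshold for higher change in COLO858 numbered 0 at both times in that fit, against 1.78% and 4.19% of all genes. With the block, further members passed for the line difference at both times. By an unadjusted limma p, IGF2R, IRS1 and IGFBP3 were under 0.05 at 24 h, and IGF1R, INSR, IRS1 and IGFBP3 at 48 h. INSR was under 1 FPKM in all COLO858 libraries, so its difference restates its change in MMACSF.

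**Figure D2:**
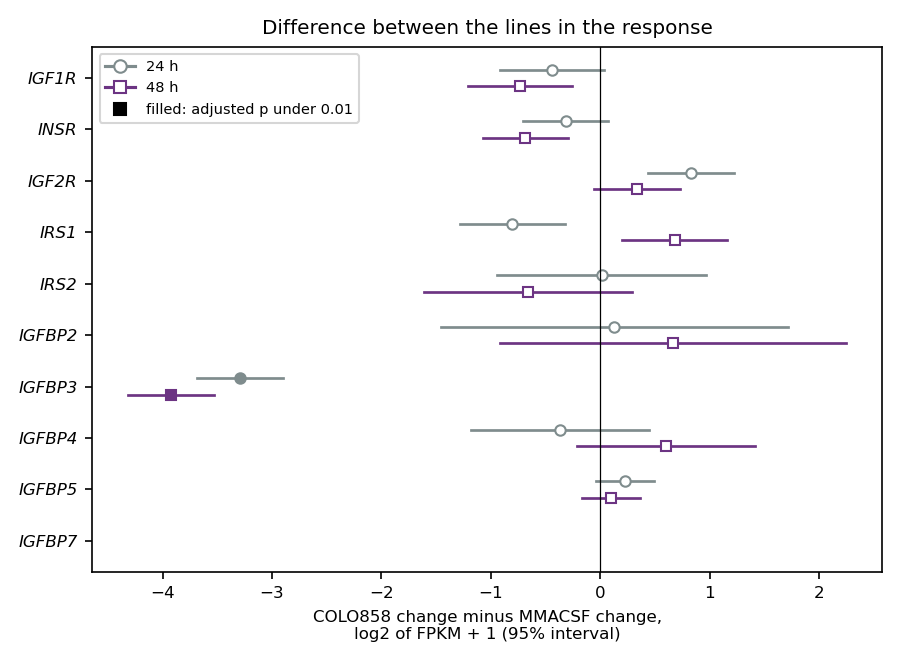
The horizontal axis is the change in COLO858 minus that in MMACSF, in log2 of FPKM + 1, for each gene. Grey circles are 24 h and purple squares 48 h. Intervals are 95% from limma without a replicate block, and symbols are filled for an adjusted p under 0.01. IGFBP3 alone has filled symbols, at -3.29 and -3.92, and the intervals of IRS2, IGFBP2, IGFBP4 and IGFBP5 cross 0 at both times; IGFBP7 was not tested.

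The genes whose course over the 12 libraries was most like that of IGFBP3 were ITGA9, an integrin subunit (Pearson r = 0.992), FBXO17, an F-box protein (r = 0.987), and ELF4, an ETS family transcription factor (r = 0.986). Likeness was taken on log2(FPKM + 1) minus the DMSO mean of each line, among 11699 candidates, and is a description in which all genes share the same 12 libraries.

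IGFBP5, a binding protein that also attaches to extracellular matrix, fell at 48 h in both lines from very different levels. In COLO858 it measured 556 and 551 FPKM under DMSO, 699 and 698 FPKM at 24 h, and 241 and 244 FPKM at 48 h. It thus stood above 98.57% of the listed genes in every COLO858 library, and replicates differed far less than conditions did. The log2 change at 48 h was -1.19 ± 0.10 (limma adjusted p = 0.00196), or 2.28-fold lower mean FPKM.

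At 24 h IGFBP5 in COLO858 was 1.26-fold above DMSO in mean FPKM with no overlap, a log2 difference of 0.33 ± 0.10 that missed the threshold (limma adjusted p = 0.0592). Between 24 and 48 h it fell by 1.52 ± 0.10 on the log2 scale (limma adjusted p = 0.00375), the 22nd largest of 27 such falls.

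The MMACSF table lists IGFBP5 at much lower levels, with 4.02 and 4.08 FPKM under DMSO, 4.29 and 4.61 FPKM at 24 h, and 1.09 and 1.07 FPKM at 48 h. Both 48 h libraries lay well below all the others. The fall at 48 h was 3.75-fold in mean FPKM and -1.28 ± 0.14 on the log2 scale (limma adjusted p = 0.00402). From 24 to 48 h the log2 difference was -1.39 ± 0.14, short of the threshold (limma adjusted p = 0.0289). The changes of the 2 lines at 48 h differed by 0.09 with a 95% interval of -0.17 to 0.36 (limma interaction, adjusted p = 0.688). That interval is on the log2(FPKM + 1) scale, which understates changes at levels as low as those of MMACSF.

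IGFBP3 and IGFBP5 were the binding proteins past the threshold in both lines, and the 300 bases around their start sites are shown for that reason. The sequences are from RefSeq on GRCh38.p14, with 250 bases before the start in lower case and the first 50 transcribed bases in capitals, both read from the minus strand at chr7:45921223-45921522 for IGFBP3 and chr2:216695500-216695799 for IGFBP5.
IGFBP3: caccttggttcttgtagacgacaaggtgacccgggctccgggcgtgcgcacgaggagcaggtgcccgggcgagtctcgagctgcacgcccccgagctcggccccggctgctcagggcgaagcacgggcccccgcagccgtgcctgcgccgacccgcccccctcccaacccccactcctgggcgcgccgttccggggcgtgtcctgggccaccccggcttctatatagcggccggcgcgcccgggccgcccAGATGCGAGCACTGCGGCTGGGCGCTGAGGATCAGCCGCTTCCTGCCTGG
IGFBP5: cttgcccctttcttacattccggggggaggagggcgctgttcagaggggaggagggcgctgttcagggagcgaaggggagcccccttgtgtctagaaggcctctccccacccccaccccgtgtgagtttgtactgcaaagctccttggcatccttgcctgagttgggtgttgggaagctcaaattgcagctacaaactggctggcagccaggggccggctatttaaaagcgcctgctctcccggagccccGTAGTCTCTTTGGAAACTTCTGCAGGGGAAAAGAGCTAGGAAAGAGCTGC
The IGFBP3 window was 74.7% G or C and that of IGFBP5 59.0%. RefSeq windows were at hand for 9 of the 10 genes, with 3 starts for IGFBP2, and these 11 windows were searched on both strands for GTAAACA (a FOXO core), TGANTCA (AP-1) and TCATGTG (an MITF M-box core). None of the 3 was found in any of the 11, while 3.42%, 7.71% and 2.92% of the 35116 RefSeq windows of this length held them. The E-box CACGTG, added after the sequences were seen, was present in 2 of the 11, with 3 copies before the IGF2R start and 1 copy after the IRS1 start, against 7.26% of all windows. These are matches of letters and not sites of binding.

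On GRCh37, the build of the deposited tables, IGFBP5 (chr2:217536828-217560272, minus strand) lies next to IGFBP2 (chr2:217497551-217529159, plus strand), end to end with 7668 bp between them. IGFBP3 (chr7:45951844-45961473, minus strand) has IGFBP1 as its neighbour in the same arrangement, 18584 bp away, and IGFBP1 was listed at 0 in all 12 libraries.

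IGFBP2, which binds IGF2 with preference, was lower in drug in both lines. Its replicates lay far apart, always in the same order, with replicate 1 the higher in 6 of 6 groups. The values below are from the main fit, which has no term for the replicate number. With that number as a block, IGFBP2 passed the threshold in each line at each time against DMSO. In COLO858 it measured 97.9 and 55.3 FPKM under DMSO, 48.5 and 26.3 FPKM at 24 h, and 26.3 and 14.7 FPKM at 48 h. Both DMSO libraries exceeded all 4 drug libraries. The log2 differences were -1.02 ± 0.45 at 24 h (limma adjusted p = 0.157) and -1.85 ± 0.45 at 48 h (limma adjusted p = 0.0377), neither past the threshold.

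In MMACSF, IGFBP2 measured 31.7 and 15.8 FPKM under DMSO, 11.3 and 8.06 FPKM at 24 h, and 4.38 and 2.14 FPKM at 48 h, with no overlap between conditions. Its log2 difference at 48 h was the largest of the 9 genes in this line, -2.51 ± 0.41, and narrowly missed the threshold in the main fit (limma adjusted p = 0.0123). That is 5.71-fold on the log2(FPKM + 1) scale, while mean FPKM was 7.29-fold lower. Replicate 1 was higher than replicate 2 in 6 of 6 groups for IGFBP2, and likewise for IRS2 and IGFBP4. Among 9986 genes at 1 FPKM or more in every library, 22.1% had replicate 1 higher in all 6 groups and 42.5% in none.

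IGFBP4, a binding protein that inhibits IGF action, passed the threshold in neither line. It measured 5.50 and 3.63 FPKM under DMSO, 3.03 and 2.999 FPKM at 24 h, and 6.80 and 5.03 FPKM at 48 h in COLO858. In MMACSF its 6 libraries ranged from 7.05 to 11.7 FPKM, and the conditions overlapped. IGFBP7 stayed under 1 FPKM in every library and was not tested. It measured 0.231 to 0.789 FPKM in COLO858 and was listed at 0 in 5 of the 6 MMACSF libraries.

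Summed over IGFBP1 to IGFBP7, binding protein transcripts in COLO858 came to 701 and 651 FPKM with DMSO, 766 and 740 FPKM at 24 h, and 290 and 277 FPKM at 48 h. IGFBP5 made up 79.4% to 94.4% of the sum in each of these libraries. The sum in MMACSF was 129 and 97.8 FPKM under DMSO, 139 and 124 FPKM at 24 h, and 183 and 164 FPKM at 48 h. There, IGFBP3 held 46.3% and 57.8% of the sum under DMSO, 69.6% and 77.1% at 24 h, and 86.0% and 85.6% at 48 h. The 2 lines therefore differed in which binding protein dominated, and the sum was lowest at 48 h in COLO858 and highest at 48 h in MMACSF. These sums are given as a description with no test, and levels were not tested across lines because the 2 tables may have been scaled separately.

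**Figure D3:**
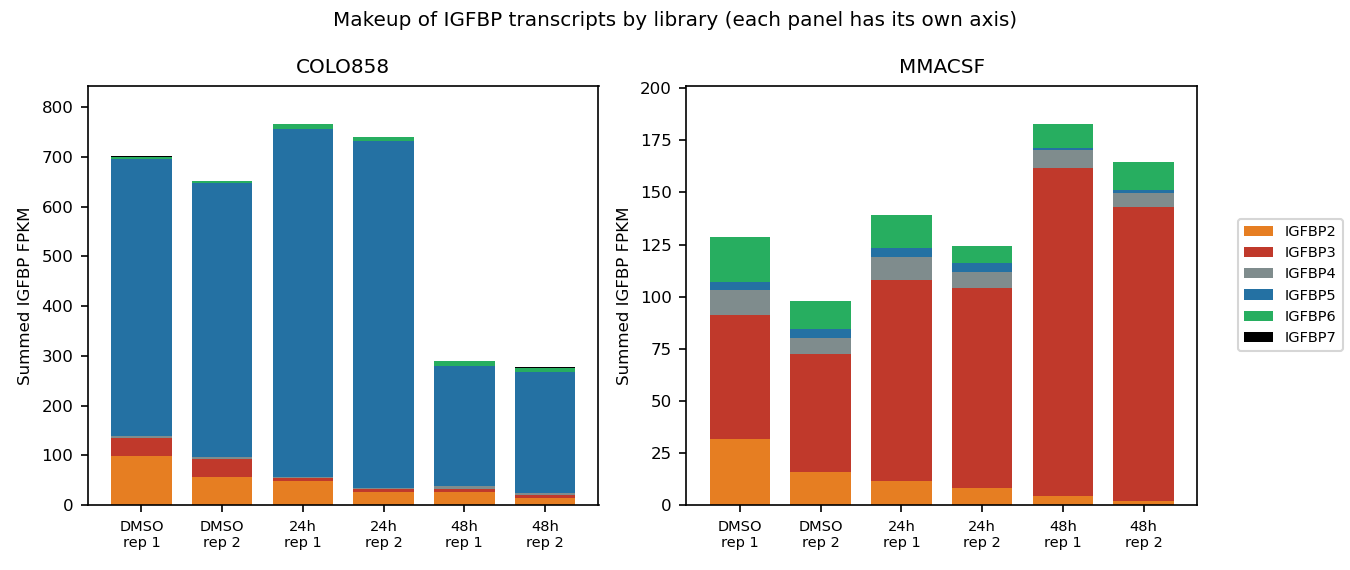
Summed FPKM of IGFBP1 to IGFBP7 in each library (vertical axes from 0, a different scale for each line), with colours for the single genes. IGFBP5 fills most of every COLO858 bar, and IGFBP3 takes 46.3% to 86.0% of the MMACSF bars.

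Among the receptors, IGF1R in COLO858 was 14.2 and 14.8 FPKM under DMSO, 10.6 and 10.9 FPKM at 24 h, and 9.59 and 9.83 FPKM at 48 h. All 4 drug libraries lay below the DMSO pair. The log2 differences were -0.40 ± 0.13 at 24 h (limma adjusted p = 0.0750) and -0.53 ± 0.13 at 48 h (limma adjusted p = 0.0351). Neither passed the threshold in the main fit. In MMACSF it was 11.4 and 11.9 FPKM under DMSO, 10.5 and 13.9 FPKM at 24 h, and 12.2 and 15.0 FPKM at 48 h. The 24 h and DMSO libraries overlapped there. The change at 48 h differed between the lines by -0.73, with a 95% interval of -1.21 to -0.26 and a limma adjusted p of 0.0471, which misses the threshold.

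INSR, the insulin receptor, stood at 0.275 and 0.382 FPKM under DMSO in COLO858 and did not reach 1 FPKM in any of its libraries. In MMACSF it measured 2.01 and 1.78 FPKM under DMSO, 2.56 and 3.10 FPKM at 24 h, and 3.33 and 3.90 FPKM at 48 h. The 3 conditions were fully separate in MMACSF, yet the log2 difference at 48 h, 0.67 ± 0.16, missed the threshold (limma adjusted p = 0.0359).

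IGF2R in COLO858 measured 29.4 and 28.5 FPKM under DMSO, 45.9 and 49.0 FPKM at 24 h, and 36.3 and 31.7 FPKM at 48 h. It was highest at 24 h, with no overlap among the conditions. The log2 difference at 24 h was 0.69 ± 0.13, above the threshold for p (limma adjusted p = 0.0193), and at 48 h it was 0.22 ± 0.13 (limma adjusted p = 0.277). In MMACSF the 6 libraries stayed between 24.4 and 31.3 FPKM. The line difference at 24 h, 0.83 ± 0.17, also missed the threshold (limma interaction, adjusted p = 0.0211).

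The adaptor IRS1 rose late in COLO858. It measured 1.47 and 1.73 FPKM under DMSO, 1.31 and 1.12 FPKM at 24 h, and 4.39 and 5.34 FPKM at 48 h. The 48 h pair lay above all 4 other libraries, and the log2 change at 48 h was 1.17 ± 0.16 (limma adjusted p = 0.00736). That is 2.25-fold on the log2(FPKM + 1) scale, while mean FPKM was 3.04-fold higher. Without a minimum level for testing, that adjusted p was 0.0119. Between 24 and 48 h the log2 difference was 1.40 ± 0.16, just short of the threshold (limma adjusted p = 0.0120), and with median-ratio rescaling the adjusted p was 0.00595.

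In MMACSF, IRS1 measured 4.28 and 4.98 FPKM under DMSO, 8.09 and 6.68 FPKM at 24 h, and 6.45 and 7.40 FPKM at 48 h. Both drug times lay above DMSO and overlapped each other, with log2 differences of 0.57 ± 0.16 (limma adjusted p = 0.0647) and 0.49 ± 0.16 (limma adjusted p = 0.0837). The line difference was -0.80 ± 0.21 at 24 h and 0.68 ± 0.21 at 48 h, with limma adjusted p of 0.0513 and 0.0663.

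IRS2 was higher in drug in both lines, at both times and in every library. It missed the threshold in all 4 comparisons of the main fit, which has no term for the replicate number. With the replicate number as a block it passed in each of them, but no source says what these numbers pair. In COLO858 it measured 21.1 and 16.2 FPKM under DMSO, 63.0 and 41.6 FPKM at 24 h, and 45.3 and 34.7 FPKM at 48 h. The means were 2.80-fold and 2.14-fold above DMSO, with log2 differences of 1.42 ± 0.27 (limma adjusted p = 0.0180) and 1.06 ± 0.27 (limma adjusted p = 0.0408).

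In MMACSF, IRS2 measured 13.4 and 9.97 FPKM under DMSO, 40.7 and 25.8 FPKM at 24 h, and 45.5 and 35.8 FPKM at 48 h. Here the means were 2.84-fold and 3.47-fold above DMSO, with log2 differences of 1.41 ± 0.27 (limma adjusted p = 0.0222) and 1.72 ± 0.27 (limma adjusted p = 0.0108). At 24 h the changes of the lines differed by 0.01 with a 95% interval of -0.94 to 0.96, wide enough to hold differences of close to 2-fold either way.

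Counted together, the 8 genes tested in COLO858 held 0 past the threshold for a rise and 1 for a fall (IGFBP3) at 24 h, against 4.11% and 5.71% of all genes. At an unadjusted limma p under 0.05, IGF2R, IRS2 and IGFBP5 were also higher and IGF1R was also lower. At 48 h, 1 rose (IRS1) and 2 fell (IGFBP3 and IGFBP5), against 4.74% and 4.73%. There, IRS2 was also higher, and IGF1R and IGFBP2 were also lower, at an unadjusted limma p under 0.05. Between 24 and 48 h, 0 rose and 1 fell (IGFBP5), against 1.17% and 0.213%. At an unadjusted limma p under 0.05, IRS1 and IGFBP4 were also higher between these times and IGF2R was also lower. The median log2 change of the 8 genes against DMSO was -0.32 at 24 h and -0.16 at 48 h, beside 0.06 and -0.01 over all 12696 genes tested.

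The 9 genes tested in MMACSF held 0 past the threshold in either direction at 24 h, against 2.22% and 3.60% of 12599 genes, with IGFBP3, IRS1, IRS2 and IGFBP2 under an unadjusted limma p of 0.05. At 48 h, 1 rose (IGFBP3) and 1 fell (IGFBP5), against 3.42% and 5.41%. INSR, IRS1 and IRS2 were also higher, and IGFBP2 was also lower, at an unadjusted limma p under 0.05. From 24 to 48 h there were 0 in either direction, against 0.111% of all genes each way, with IGFBP2, IGFBP3 and IGFBP5 under an unadjusted limma p of 0.05. Median log2 changes against DMSO were 0.11 and 0.20, beside 0.07 and 0.06 over all genes. The count of so few genes is read as the named genes above and not as a share.

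**Figure D4:**
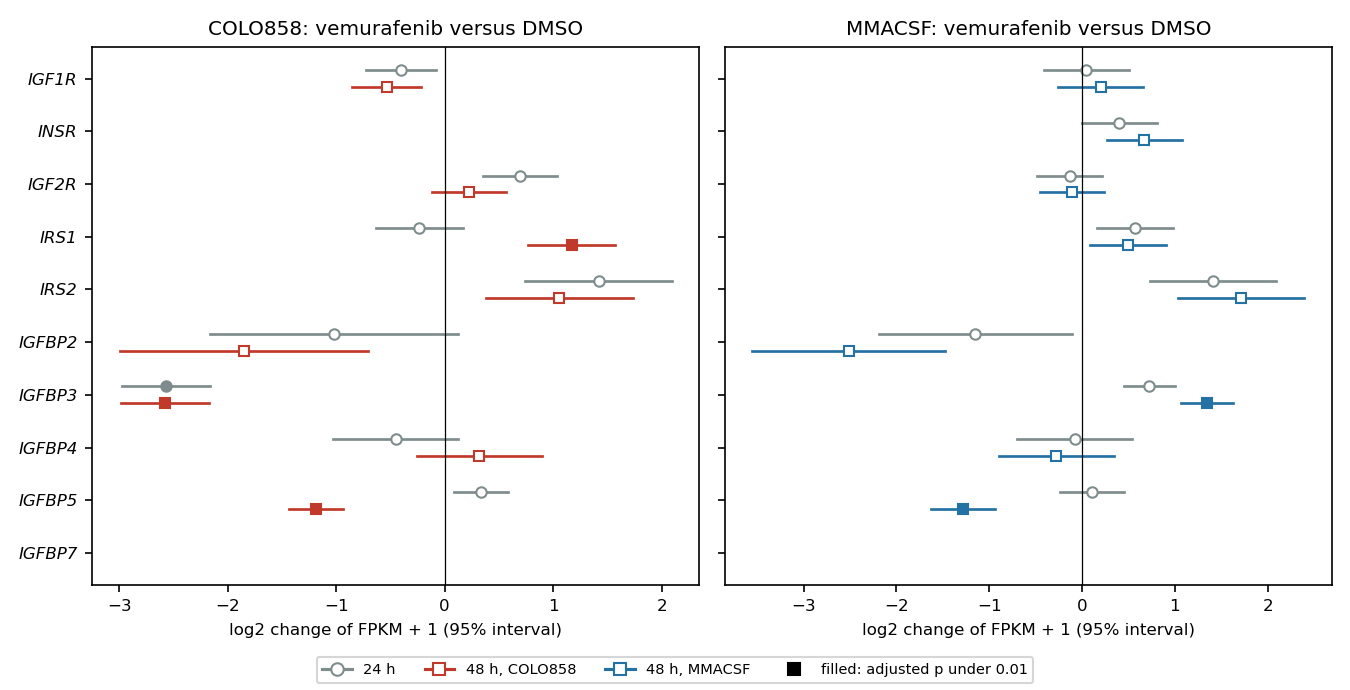
Log2 change of FPKM + 1 against DMSO (horizontal axes) in COLO858 (left) and MMACSF (right) at 24 h (circles) and 48 h (squares), with 95% intervals from limma and filled symbols for an adjusted p under 0.01. IGFBP3 lies at -2.57 and -2.58 in COLO858 and at 0.72 and 1.34 in MMACSF, and IGFBP5 at 48 h lies at -1.19 and -1.28; genes without a symbol were not tested in that line.

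The rest of the pathway was followed with 63 further genes, all found in the tables, of which 51 were tested in COLO858 and 49 in MMACSF. The ligands IGF1, IGF2 and INS, the insulin receptor-related receptor INSRR and the serum carrier IGFALS were below 1 FPKM in all 12 libraries, and the highest was IGF2 at 0.347 FPKM in an MMACSF library at 24 h. INS was listed at 0 throughout. IGFBP6, a binding protein selective for IGF2, measured 4.36 and 3.37 FPKM under DMSO, 9.08 and 6.87 FPKM at 24 h, and 9.36 and 7.91 FPKM at 48 h in COLO858, and 8.13 to 21.6 FPKM in MMACSF. It passed the threshold in no comparison.

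In COLO858, 7 of the 51 pathway genes rose and 3 fell at 24 h, against 4.11% and 5.71% of all genes. At 48 h, 7 rose and 4 fell, against 4.74% and 4.73%. The largest rise at 24 h was that of PIK3R3, a regulatory subunit of PI3-kinase, with 2.05 and 3.18 FPKM under DMSO and 33.4 and 40.0 FPKM at 24 h (log2 change 3.40 ± 0.24, limma adjusted p = 0.00138). At 48 h it was that of GRB14, an adaptor that binds and inhibits the insulin receptor, with 0.573 and 0.625 FPKM under DMSO and 9.92 and 11.2 FPKM at 48 h (log2 change 2.85 ± 0.19, limma adjusted p = 0.00115). GRB14 was also the 1 pathway gene past the threshold between 24 and 48 h (log2 change 2.37 ± 0.19, limma adjusted p = 0.00556).

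In MMACSF, 5 of the 49 pathway genes rose and 2 fell at 24 h, against 2.22% and 3.60% of all genes. At 48 h, 4 rose and 3 fell, against 3.42% and 5.41%. The falls of the pathway list were thus near the share of all genes in this line. SESN3, a stress-response gene that FOXO factors activate, had the largest rise at 48 h, from 13.9 and 14.7 FPKM to 47.7 and 52.9 FPKM (log2 change 1.74 ± 0.12, limma adjusted p = 0.00113).

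SH2B3, an adaptor that dampens cytokine receptor signaling, had the largest fall of the list in both lines at both times. In COLO858 it went from 87.9 and 88.3 FPKM to 10.5 and 11.1 FPKM at 24 h and 7.84 and 8.59 FPKM at 48 h. The MMACSF values were 22.8 and 23.7 FPKM under DMSO, 3.42 and 3.53 FPKM at 24 h, and 4.49 and 4.64 FPKM at 48 h. Drug and DMSO libraries were far apart in each case, and SH2B3 fell in COLO858 by 2.92 on the log2 scale at 24 h (limma adjusted p = 0.000595), and its log2 change at 48 h was -3.27 (limma adjusted p = 0.000330). The corresponding log2 changes in MMACSF were -2.44 (limma adjusted p = 0.000899) and -2.13 (limma adjusted p = 0.000812).

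Of 10 FOXO targets on the list, 9 were tested in COLO858, where 6 rose at 24 h (CCNG2, SESN3, BCL6, CITED2, TXNIP and BCL2L11) and 4 at 48 h (SESN3, BCL6, CITED2 and TXNIP). In MMACSF all 10 were tested, 4 rose at 24 h (SESN3, BCL6, TXNIP and CDKN1B), and at 48 h 3 rose (SESN3, TXNIP and CDKN1B) and 1 fell (PDK4). PDK4 was already lower there at 24 h, short of the threshold (limma adjusted p = 0.0101). GADD45A was below DMSO in every drug library of both lines, without passing the threshold. Its means under DMSO, at 24 h and at 48 h were 26.2, 16.8 and 21.6 FPKM in COLO858. In MMACSF they were 19.8, 14.9 and 16.2 FPKM. CDKN1B in COLO858 was below DMSO at 48 h, with means of 60.8 and 49.0 FPKM. The median log2 change of the targets was 1.79 and 1.59 in COLO858 and 1.26 and 0.96 in MMACSF at 24 and 48 h, beside 0.06, -0.01, 0.07 and 0.06 over all genes. The share of all genes that rose was 4.11% and 4.74% in COLO858, and 2.22% and 3.42% in MMACSF. For TXNIP, which inhibits thioredoxin and glucose uptake, the values in COLO858 were 17.8 and 21.0 FPKM under DMSO, 68.1 and 81.6 FPKM at 24 h, and 85.4 and 104 FPKM at 48 h. In MMACSF it measured 20.0 and 21.8 FPKM, 59.2 and 67.8 FPKM, and 45.7 and 53.4 FPKM. Every drug library exceeded the DMSO libraries of its line. These targets respond to other factors as well as to FOXO, and apart from SESN3 they are named here after their values were seen. The factors FOXO1, FOXO3 and FOXO4 were tested in both lines, and 1 of them, FOXO4 in MMACSF at 48 h, passed the threshold (log2 change 0.94 ± 0.13, limma adjusted p = 0.00812).

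Of 5 genes for proteases that cut IGFBPs and their inhibitors, 2 were tested in COLO858 and 1 in MMACSF. STC1, a secreted inhibitor of the protease PAPP-A that was named after its values were seen, fell in COLO858 by 2.62 ± 0.15 on the log2 scale at 24 h (limma adjusted p = 0.000865) and by 2.84 ± 0.15 at 48 h (limma adjusted p = 0.000662). In MMACSF it measured 0.305 and 0.257 FPKM under DMSO, was listed at 0 at 24 h, and measured 0.0225 and 0.0325 FPKM at 48 h, so that its change on the log2(FPKM + 1) scale is held near 0 there and the lines are not compared. Over the whole pathway list, 2 genes passed the threshold of the line difference upwards and 2 downwards at 24 h, and 5 and 3 at 48 h, of 52 tested, against 1.78%, 1.93%, 4.19% and 3.30% of all genes in the same order. These counts include STC1 and GRB14, which were under 1 FPKM in every MMACSF library, and PDK4, which was so in every COLO858 library, so their difference restates the change of the other line.

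**Figure D5:**
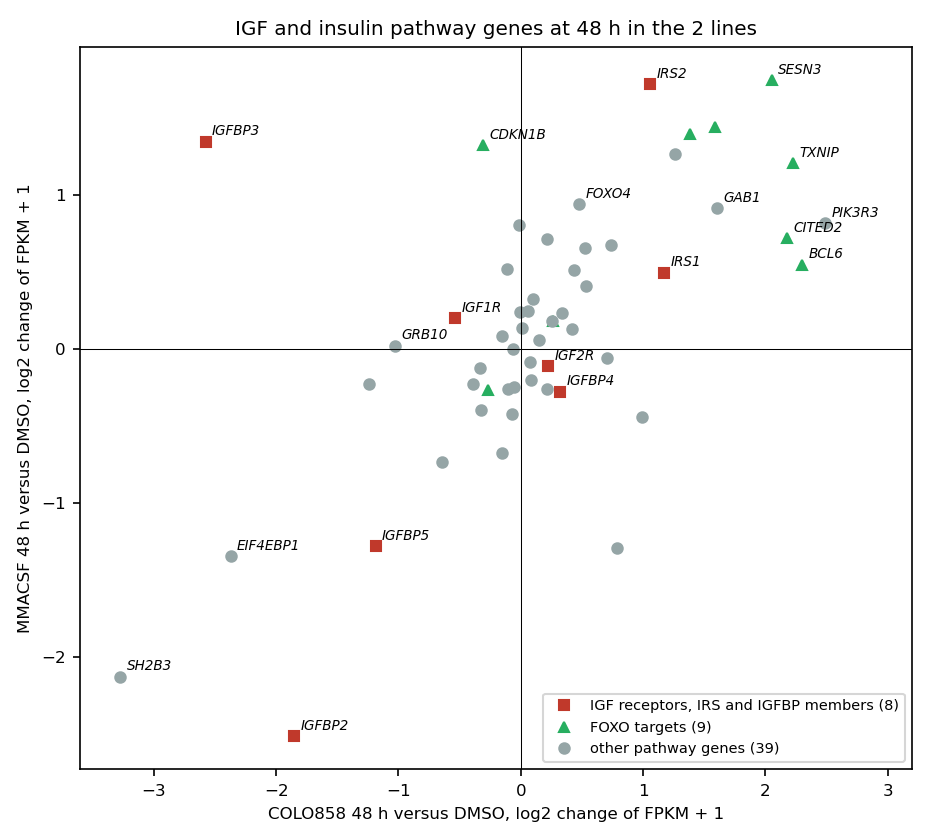
Log2 change of FPKM + 1 at 48 h against DMSO in COLO858 (horizontal axis) and MMACSF (vertical axis) for the IGF receptors, IRS adaptors and binding proteins (red squares), FOXO targets (green triangles) and other pathway genes (grey circles) tested in both lines. Names mark the first class and the genes past the threshold in either line; IGFBP3 lies at the far upper left, at -2.58 and 1.34, and SH2B3 at the lower left, at -3.27 and -2.13.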

How the data were processed

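RNA-seq was available for 12 libraries, 2 for each of 6 groups (each line in vehicle, and at 24 h and 48 h of vemurafenib at 0.2 μM), grouped by the sample labels. The authors mapped stranded single reads to hg19 with TopHat at its defaults and obtained values with Cuffdiff. The deposited FPKM values, in 1 table per line, were used as they stand; 0 columns were left out. Versions, gene annotation, and the strand and scaling settings of Cuffdiff are not given in the sources used here. Read depth is unknown, so no counting interval can be given.

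Each line was fitted with limma 3.58.1 in R 4.3.3 on log2(FPKM + 1), with its 3 conditions as terms and a mean-variance trend, over the genes whose mean reached 1 FPKM in any condition. The line difference was an interaction in a model of 6 groups over 12 libraries. Tests were two-sided, with Benjamini-Hochberg adjustment across every gene tested and a threshold of 0.01. The procedure was tested on simulated data in which each library had independent noise. They held no effect shared by libraries of the same replicate number, so that point was not tested. Alternatives were adding 0.1 FPKM and not 1, testing genes without a minimum or from 10 FPKM upwards, a replicate block, median-ratio rescaling, no trend, a threshold of 0.05, and leaving out each library.

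All 10 genes were named. Of the pathway list, written from general knowledge, the other ligands, receptors and binding proteins were named, as were the largest rise and fall past the threshold in each line and time. 1 such result is not reported here. For a gene past the line difference at 48 h, the 3 genes most like it were named. The genes and lists were chosen with earlier results of these data known. Gene positions were taken from GENCODE v44 as lifted to GRCh37, and promoters from RefSeq. Protein sequences were not analysed here.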

Additional observations from a re-analysis of the deposited data

Results flagged for a closer look

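IGFBP3 was the gene of the group whose response differed between the lines by a test of the difference itself at an adjusted p under 0.01, in the fit without a replicate block. Other genes under 0.05 were IGF2R at 24 h (limma adjusted p = 0.0211), and INSR (0.0279) and IGF1R (0.0471) at 48 h. As INSR was under 1 FPKM in all COLO858 libraries, its difference restates its change in MMACSF. For IGFBP3, the change in COLO858 minus that in MMACSF was -3.29 at 24 h and -3.92 at 48 h on the log2(FPKM + 1) scale (limma interaction, adjusted p = 5.82e-05 and 6.82e-06). The 4 vemurafenib-treated libraries were below both DMSO libraries in COLO858 and above both in MMACSF. With 2 libraries per group, no search for outlying libraries was made.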

How the results depend on the processing

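The replicate numbers of the labels are shared by the groups, but no source says what they pair. When group means were subtracted, libraries of the same number correlated over all genes tested with r = 0.196 to 0.211 (COLO858) and 0.0628 to 0.113 (MMACSF), and at 0.753 to 0.779 and 0.590 to 0.673 without small RNA genes. With the replicate number as a block, 27 of 69 values passed the threshold in place of 9, and all 9 were among the 27. The number of the named genes past the threshold with the replicate block was 6 in COLO858 at 24 h, 6 at 48 h and 3 between the times, 3 and 4 in MMACSF at 24 and 48 h, and 2 and 3 for the line difference at 24 and 48 h. IRS2 and IGFBP2 passed it with the block in each line at each time against DMSO (limma adjusted p = 0.000120 to 0.00586). Without the block these counts were 1, 3, 1, 0, 2, 1 and 1. At an adjusted p under 0.05 they were 3, 6, 2, 2, 5, 2 and 3 in the same order, and 1 in MMACSF between the times, where it was 0. Median-ratio rescaling gave 2 in COLO858 between the times, and a minimum of 10 FPKM gave 1 in MMACSF at 48 h, where fewer genes were tested.

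Leaving out 1 library gave 0 genes in COLO858 at 24 h, 0 to 1 at 48 h (IGFBP3, without replicate 1 of 48 h), 0 between the times and 0 in MMACSF at 48 h, in fits with fewer libraries. The limma adjusted p of the 7 calls within a line was then 0.00856 to 0.0451, and each kept its direction. Signs turned in small differences that were not called. With median-ratio rescaling, IGFBP3 in COLO858 between the times was 0.054 and IGF1R in MMACSF at 24 h was -0.018. With 0.1 FPKM added, the line difference of IRS2 at 24 h was -0.015. Over the fits that left out 1 library, the ranges were -0.15 to 0.13 for IGFBP3 in COLO858 between the times, -0.34 to 0.18 for IGFBP4 and -0.14 to 0.23 for IGF1R in MMACSF at 24 h. Between the times in MMACSF they were -0.034 to 0.34 for IGF1R, -0.087 to 0.13 for IGF2R, -0.20 to 0.043 for IRS1, -0.41 to 0.015 for IGFBP4 and -0.013 to 0.62 for IRS2. For the line difference at 24 h they were -0.31 to 0.33 for IRS2 and -0.35 to 0.61 for IGFBP2. Except where a value shows it, the cause was not tested.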
